A study of Mus musculus with 30 samples.

Results

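CD8+ T cells labelled as knockout (KO) for Furin, the gene of the protein convertase FURIN, were compared between 2 cytokine conditions, IL12 and TGFB1. The comparison took every library labelled with the Furin KO genotype that had received either cytokine, 5 with IL12 and 5 with TGFB1, which is 10 of the 30 libraries of the series. Both groups were naive CD8+ T cells that had been isolated with magnetic beads from lymph nodes and spleen of 8-week-old C57BL/6 mice. Both were kept in serum-free medium for 3 days on plates coated with anti-CD3 and anti-CD28 antibodies at 5 µg/ml each. The IL12 group had recombinant IL12 at 10 ng/ml, and the TGFB1 group had recombinant TGFB1 at 0.5 ng/ml. Furin KO cultures without an added cytokine (5 libraries) and the wild-type (WT) cultures with IL12, with TGFB1 and with neither (5 each) are used below for position and for contrast. Each group held 4 libraries from females and 1 from a male. The labels used here name neither the deleted part of Furin nor the promoter of a Cre. Each cytokine was used at 1 dose and at 1 time.

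IL12 is a cytokine of dendritic cells and macrophages. It signals through the receptor chains IL12RB1 and IL12RB2 to the transcription factor STAT4, and in CD8+ T cells it favours T-bet, interferon-gamma and the cytotoxic granule proteins. TGFB1 is made as an inactive precursor that FURIN can cleave. It signals through TGFBR1 and TGFBR2 to SMAD2 and SMAD3, restrains cytotoxic genes in T cells, and favours the tissue-residency integrin CD103 and, with other cytokines, Foxp3 or the genes of type 17 T cells.

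Library totals were 8464699 to 15502443 counts with IL12 and 7522984 to 10859883 with TGFB1. The first principal component of the 15 KO libraries (41.3% of the variance) ran from -35.52 to -25.72 with IL12, from 34.2 to 45.69 with TGFB1 and from -17.85 to -5.01 without a cytokine, so no group overlapped another on it. On the second component (20.8%) the IL12 library numbered 74 stood apart, at 45.78 against 9.69 to 24.12 in the other IL12 libraries. Values of the 5 libraries of a group are given below in the order of their numbers, 63, 68, 70, 73 and 74, in counts scaled to a library of 1000000 (CPM). For some of the genes in which library 74 stood apart, the log2 fold change is also given without it. The male library is number 63.

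Furin, the targeted gene (ENSMUSG00000030530, GRCm38 chr7:80388585-80405436, minus strand), was read in all KO libraries. Its level was 161.0, 120.0, 131.9, 195.7 and 463.5 CPM with IL12, against 65.96, 72.27, 90.2, 79.3 and 81.85 CPM with TGFB1. The groups did not overlap, and library 74 was the highest. The mean with IL12 was 214.4 ± 142.3 CPM for KO libraries, against 374.6 ± 185.9 CPM for WT libraries (SD, n = 5 each). With TGFB1 the KO mean was 77.92 ± 9.261 CPM, against 80.9 ± 7.64 CPM for WT. Cultures given no cytokine had 32.61 ± 0.8284 CPM with the KO label, against 34.52 ± 3.566 CPM for WT. The total of Furin RNA thus does not show its loss in the KO libraries. A gene total cannot show which exons were read, so these levels do not check the genotype labels. The log2 fold change of IL12 over TGFB1 in KO cells was 1.46 ± 0.3 (SE; adjusted p = 0.000455, edgeR), and 0.96 without library 74.

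Across all genes, the choice between IL12 and TGFB1 moved 3587 of 11718 genes tested, 30.6%, past an adjusted p of 0.05. With IL12 1741 of them were higher (14.9% of the genes tested) and 1846 were lower (15.8%). At 2-fold or more, 497 of the called genes were higher and 348 lower with IL12, and at 8-fold or more 84 were higher and 40 lower. The median log2 fold change over all genes was -0.001. The 5 IL12 libraries lay wholly above the 5 TGFB1 libraries for 1193 genes (10.2% of those tested) and wholly below them for 1210 (10.3%). In cultures read as bulk RNA, fewer cells that express a gene and less of its RNA per cell cannot be told apart.

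**Figure D1:**
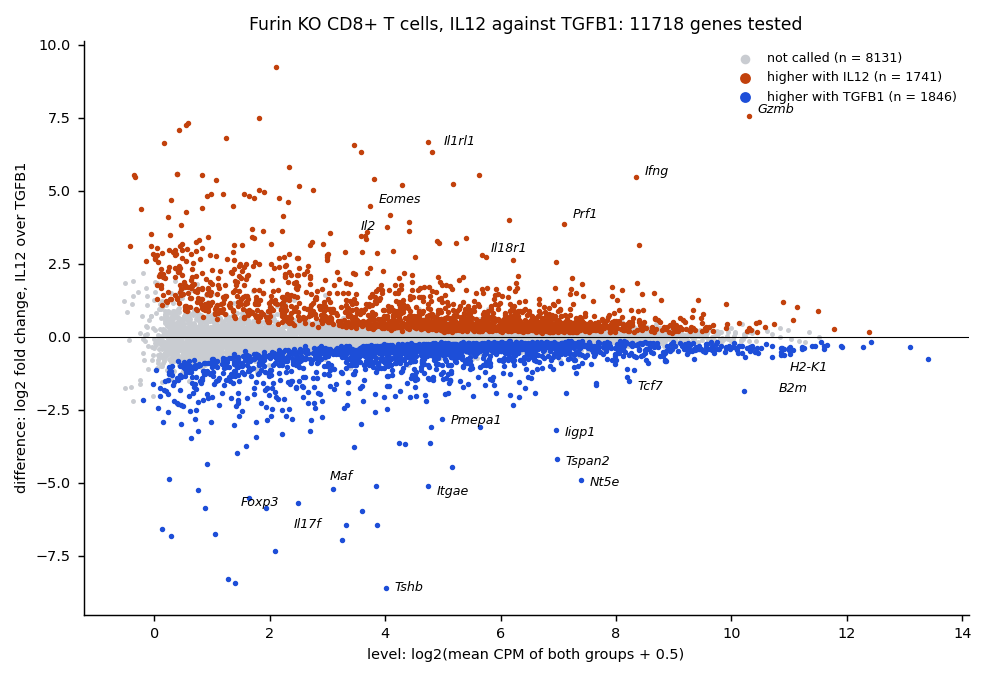
Level of each gene tested, as log2 of the mean CPM of both groups plus 0.5 (horizontal), against its log2 fold change of IL12 over TGFB1 in Furin KO cells (vertical). Each point is 1 gene, orange points (1741) were called higher with IL12 and blue points (1846) higher with TGFB1. Gzmb and Ifng stand at the top among abundant genes, and Tshb, Nt5e and Itgae at the bottom.

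Among the 8 genes with the smallest p were Tbc1d4, Exoc3, Nt5e, Pmepa1, Bpgm, Irgm1 and Rgmb. Exoc3, a subunit of the exocyst that tethers secretory vesicles, differed by less and with little scatter, at 77.16 ± 4.151 CPM with IL12 and 153.5 ± 10.54 CPM with TGFB1 (SD, n = 5 each). Bpgm, bisphosphoglycerate mutase, had 29.78 ± 1.134 CPM with IL12 and 81.87 ± 11.86 CPM with TGFB1. Tbc1d4, a GTPase-activating protein of glucose transporter vesicles, had 2.89, 3.38, 3.88, 2.99 and 2.14 CPM with IL12, against 41.76, 53.83, 106.1, 63.19 and 70.07 CPM with TGFB1. Every TGFB1 library was far above every IL12 library, and the log2 fold change was -4.45 ± 0.26 (adjusted p = 1.1e-12). All 7 genes named here were lower with IL12.

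Of 25 tested members of a list of IL12 receptor and STAT4 genes, 12 were higher (48%) and 2 lower (8%) with IL12, against 14.9% and 15.8% of all genes. The other 11 were not called. Furin is itself among the 12. Their median log2 fold change was 0.5, against -0.001 for all genes. Il12rb2, the receptor chain that binds STAT4, had 185.9, 157.7, 159.0, 313.1 and 353.3 CPM with IL12, against 92.16, 85.97, 70.04, 92.75 and 70.71 CPM with TGFB1. The groups did not overlap, and libraries 73 and 74 were the highest. Il12rb1, the other chain, averaged 65.93 ± 17.88 CPM with IL12 and 64.99 ± 11.21 CPM with TGFB1 and was not called (adjusted p = 0.935). It was named after its values were seen. Stat4 averaged 68.24 ± 9.016 CPM with IL12 and 39.83 ± 13.03 CPM with TGFB1, and its groups overlapped (log2 fold change 0.78 ± 0.16, adjusted p = 0.000362).

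Tbx21, which encodes the transcription factor T-bet, had 101.6, 105.6, 106.0, 107.4 and 177.3 CPM with IL12, against 26.6, 43.26, 35.23, 27.38 and 34.53 CPM with TGFB1. The lowest IL12 library was above the highest TGFB1 library. The log2 fold change was 1.84 ± 0.19 (adjusted p = 3.02e-08), and 1.65 without library 74. Both chains of the IL18 receptor were higher with IL12. Il18r1 had 73.45, 73.68, 71.93, 97.2 and 129.0 CPM with IL12, against 10.9, 11.65, 16.42, 16.96 and 8.47 CPM with TGFB1. Il18rap averaged 54.53 ± 17.96 CPM with IL12 and 5.88 ± 1.944 CPM with TGFB1. Gadd45g, a stress gene downstream of IL12 and IL18 that activates p38 kinase, had a log2 fold change of 3.46 ± 0.49, and the kinase gene Map3k8 1.32 ± 0.17. Ifngr2, a chain of the interferon-gamma receptor, was on the lower side, at 1.058 ± 0.3324 CPM with IL12 and 5.159 ± 0.9937 CPM with TGFB1.

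Ifng, the gene of interferon-gamma (ENSMUSG00000055170, GRCm38 chr10:118441046-118445892, plus strand) had 338.1, 419.3, 439.8, 566.0 and 1425.5 CPM with IL12, against 9.97, 19.85, 17.87, 8.34 and 16.39 CPM with TGFB1. All IL12 libraries were above all TGFB1 libraries, and number 74 was far above the others. The log2 fold change was 5.46 ± 0.53 (adjusted p = 1.04e-08), and 4.92 without library 74. KO cells without a cytokine averaged 14.99 CPM, next to the TGFB1 level.

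Gzmb (ENSMUSG00000015437, GRCm38 chr14:56258838-56262260, minus strand) encodes granzyme B, a protease of cytotoxic granules. It had 2069.6, 2298.2, 2251.0, 2696.1 and 3261.3 CPM with IL12, against 21.41, 19.2, 6.13, 12.51 and 7.46 CPM with TGFB1. The groups stood 189-fold apart in their means, and no library came near the other group. The log2 fold change was 7.58 ± 0.59 (adjusted p = 2.11e-10). Without a cytokine the mean was 484.9 CPM, so this level lay between both arms. Prf1, the pore protein perforin, had 205.5, 238.7, 243.2, 194.8 and 389.7 CPM with IL12, against 14.89, 26.32, 17.56, 14.78 and 14.27 CPM with TGFB1. The groups did not overlap, and its log2 fold change was 3.86 ± 0.28.

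The stretches from 250 bases before to 50 bases after the start of Ifng and Gzmb are shown because these were the most abundant of the 12 genes with the largest rise. They are from RefSeq on GRCm38.p6, written 5′ to 3′ on the strand of the gene. Capitals mark matches to TTCNNNGAA, the palindrome that STAT dimers bind, and to TGANTCA, the element of AP-1. Ifng lies at chr10:118440796-118441095 on the plus strand and Gzmb at chr14:56262285-56262584 on the minus strand.
Ifng: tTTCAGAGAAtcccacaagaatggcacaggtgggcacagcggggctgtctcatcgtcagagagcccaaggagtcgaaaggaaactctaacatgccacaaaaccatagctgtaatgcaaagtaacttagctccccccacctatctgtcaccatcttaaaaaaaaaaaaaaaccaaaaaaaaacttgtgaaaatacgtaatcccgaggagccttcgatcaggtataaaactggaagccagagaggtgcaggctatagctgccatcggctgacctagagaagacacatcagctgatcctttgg
Gzmb: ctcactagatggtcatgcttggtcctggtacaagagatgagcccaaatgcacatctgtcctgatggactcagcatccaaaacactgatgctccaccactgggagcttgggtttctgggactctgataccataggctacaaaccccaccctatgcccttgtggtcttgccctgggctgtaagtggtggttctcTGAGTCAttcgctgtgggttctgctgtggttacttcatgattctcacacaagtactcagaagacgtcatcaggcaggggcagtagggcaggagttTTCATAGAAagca
The Ifng window holds TTCAGAGAA at bases 2 to 10. The Gzmb window holds TGAGTCA at bases 193 to 199 and TTCATAGAA at bases 288 to 296. These matches describe the letters alone.

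Of 20 tested cytotoxic granule genes, 11 were higher (55%) and 3 lower (15%) with IL12, against 14.9% and 15.8% of all genes. Their median log2 fold change was 0.97. Serpinb9, the inhibitor with which cytotoxic cells protect themselves from granzyme B, averaged 132.1 ± 36.91 CPM with IL12 and 8.421 ± 3.738 CPM with TGFB1. Cst7, an inhibitor of the proteases that activate granzymes, averaged 90.14 ± 17.38 CPM with IL12 and 32.66 ± 3.092 CPM with TGFB1, and the death ligand Tnfsf10 (TRAIL) 75.84 ± 30.95 CPM with IL12 and 7.39 ± 0.9338 CPM with TGFB1. Gzmc rose by 5.04 on the log2 scale and Gzma by 3.32, both from low levels with TGFB1 (0.3587 and 0.2151 CPM). The call for Gzma did not hold in limma-voom (adjusted p = 0.0521), and its log2 fold change was 4.19 without TGFB1 library 73. The 3 lower members, Lamp1, Ctsc and Serpinb6a, differed little, with log2 fold changes of -0.22, -0.39 and -0.42. Serpinb6a was not called without IL12 library 73 (adjusted p = 0.0615) or TGFB1 library 74 (adjusted p = 0.0715). Reads of near-identical granzyme and serpin genes may be shared between copies.

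**Figure D2:**
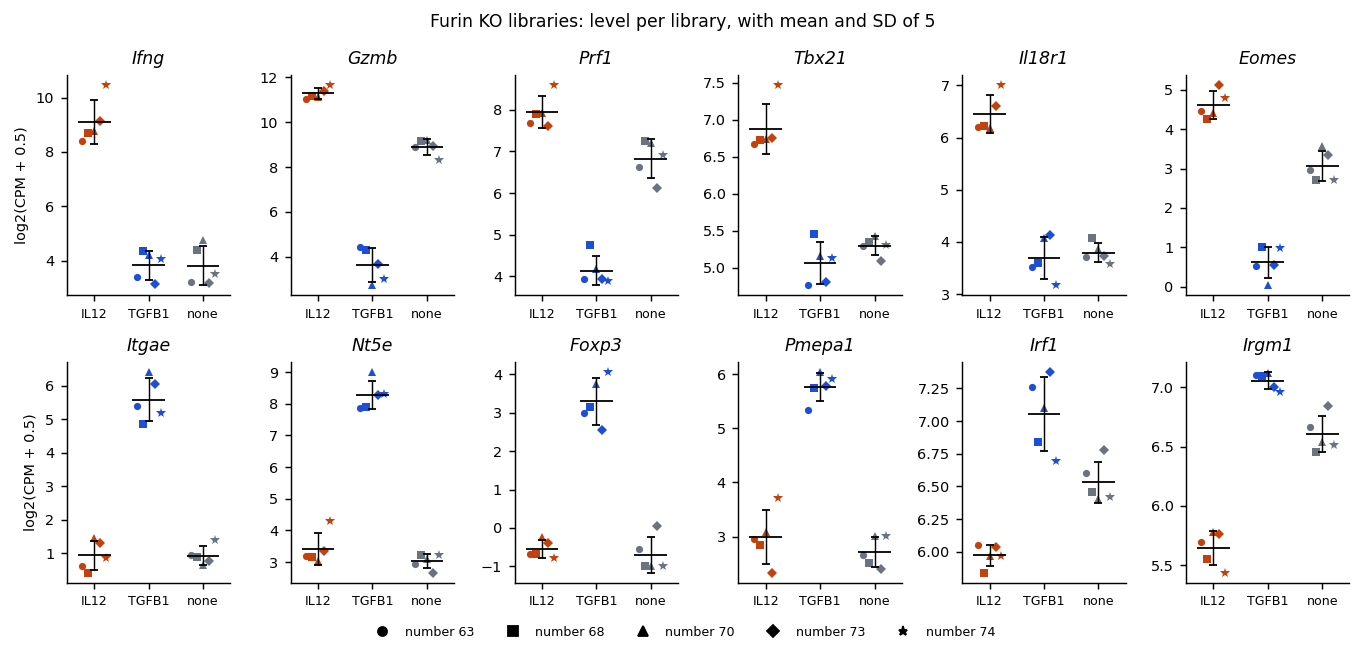
Level of 12 genes in every Furin KO library, as log2(CPM + 0.5), with IL12, with TGFB1 and without a cytokine (none); symbols mark the library number, lines the mean and bars the SD of 5. The top row is higher with IL12 and the bottom row higher with TGFB1, and the IL12 and TGFB1 libraries do not overlap in any of the 12 genes.

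Among 21 tested cytokine genes 11 were higher (52.4%) and 3 lower (14.3%) with IL12 (median log2 fold change 1.13). Among 12 chemokine ligand genes 9 were higher (75%) and 1 lower (8.33%), with a median of 1.86. Over all genes the shares were 14.9% and 15.8%. Il2, the T cell growth factor, had 14.11, 21.78, 27.17, 13.92 and 34.43 CPM with IL12, against 1.73, 3.45, 2.08, 0.76 and 2.85 CPM with TGFB1, with no overlap. Spp1 (osteopontin) averaged 38.7 ± 14.83 CPM with IL12 and 3.066 ± 1.331 CPM with TGFB1, and Csf1 (macrophage colony-stimulating factor) 13.29 ± 5.328 CPM with IL12 and 1.832 ± 0.5065 CPM with TGFB1. Inhba, the activin A subunit, rested in large part on library 74, with 16.14 CPM there, 2.2 to 3.11 CPM in the other IL12 libraries and at most 0.37 CPM with TGFB1. Its log2 fold change was 4.77, and 3.79 without library 74 (adjusted p below 0.05 both times).

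The chemokines higher with IL12 included Ccl9, with 95.48 ± 57.75 CPM with IL12 and 2.011 ± 0.6518 CPM with TGFB1, and Ccl5, which attracts T cells, with 12.69 ± 6.415 CPM with IL12 and 1.392 ± 0.8741 CPM with TGFB1. The chemokine genes Ccl3 and Ccl4 rose by 1.6 and 1.22 on the log2 scale, and Xcl1, which attracts cross-presenting dendritic cells, by 1.86. On the TGFB1 side stood Il17f and Ccl20, genes of type 17 T cells. Il17f (interleukin 17F) had 0.12, 0.0, 0.0, 0.17 and 0.74 CPM with IL12, against 6.25, 18.77, 23.8, 8.05 and 37.01 CPM with TGFB1. The groups did not overlap, and the log2 fold change was -6.46, or -7.96 without library 74. Ccl20 had no count in any IL12 library and 195 counts over the TGFB1 libraries. Set against 3 counts over the IL12 group, Ccl20 was at least 80.4-fold lower with IL12. Il10 had a log2 fold change of 1.5 ± 0.83, which was not called (adjusted p = 0.177), at 1.085 ± 0.8082 CPM with IL12 and 0.3568 ± 0.2465 CPM with TGFB1.

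Among the 12 genes with the largest rise that reached 10 CPM on the IL12 side were Gzmb, P2rx3, Selp, Il1rl1, Ccl9, Ifng, Trim66, Nkain1, Atp6v0d2, Lilr4b and Gzmc. Il1rl1, the receptor of IL33, averaged 54.4 ± 26.73 CPM with IL12 and 0.6641 ± 0.2371 CPM with TGFB1. Selp, the adhesion molecule P-selectin, averaged 22.81 ± 11.28 CPM with IL12 and 0.2552 ± 0.2549 CPM with TGFB1. P2rx3, an ATP-gated ion channel best known from sensory neurons, averaged 20.84 ± 16.4 CPM with IL12 and 0.2018 ± 0.08051 CPM with TGFB1. Nkain1, whose product interacts with the sodium pump, averaged 69.5 ± 45.65 CPM with IL12 and 1.84 ± 0.5795 CPM with TGFB1. Atp6v0d2, a subunit of the vacuolar proton pump, averaged 37.27 ± 31.25 CPM with IL12 and 1.004 ± 0.6188 CPM with TGFB1. Lilr4b had a log2 fold change of 5.17 ± 0.58 and Trim66 of 5.41 ± 0.44. Library 74 was the highest IL12 library for each of these 7 genes, and without it the log2 fold change of Atp6v0d2 was 4.54 in place of 5.2.

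Several genes that rose lay side by side. Of 451 protein-coding genes called at least 2-fold higher with IL12, 31% had another such gene within 200 kb, against 16.2% of all 10704 coding genes tested. For the 303 called at least 2-fold lower with IL12 the share was 23.1%, against 12%. On chromosome 1 Il1rl1 (GRCm38 chr1:40429570-40465415), Il18r1 (chr1:40465552-40500854) and Il18rap (chr1:40515362-40551705) follow each other, and with the neighbouring Il1rl2 all 4 were higher with IL12, by 6.32, 2.79, 3.21 and 1.53 on the log2 scale. On chromosome 9 Ccr1 and Ccr2 rose by 2.4 and 4.49. Il1rl2, Ccr1 and Ccr2 were picked after their values were seen.

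Genes of the TGFB pathway and genes associated with it in T cells were counted as lists, and no list was tested as a set. Of 31 tested members of a list of residency, regulatory and type 17 genes, 15 were lower (48.4%) and 6 higher (19.4%) with IL12. Over all genes the shares were 15.8% and 14.9%. The median log2 fold change of the list was -1.01. The list did not move to 1 side alone, as its 6 higher members, Tnfrsf4 and Xcl1 among them, rose by 1.23 to 4.97 on the log2 scale. Itgae, which encodes the CD103 chain of the integrin that holds T cells in epithelia (ENSMUSG00000005947, GRCm38 chr11:73090583-73147446), had 1.04, 0.83, 2.24, 1.96 and 1.32 CPM with IL12, against 41.49, 28.37, 84.8, 65.56 and 35.91 CPM with TGFB1. All TGFB1 libraries were above all IL12 libraries. The log2 fold change was -5.12 ± 0.49 (adjusted p = 6.03e-09), and KO cells without a cytokine averaged 1.425 CPM. Haspin, a kinase gene inside Itgae on the other strand that was named after its value was seen, had a log2 fold change of -0.68, and its reads cannot be told apart from those of Itgae. Nt5e, the enzyme CD73 that makes adenosine, had 8.56, 8.47, 7.76, 9.74 and 18.94 CPM with IL12, against 234.9, 240.0, 513.8, 309.4 and 319.1 CPM with TGFB1. Its groups stood 30.2-fold apart, with library 74 the highest on the IL12 side.

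Foxp3, the transcription factor of regulatory T cells, had 0.12, 0.13, 0.35, 0.26 and 0.08 CPM with IL12, against 7.45, 8.41, 12.89, 5.31 and 16.21 CPM with TGFB1. The groups did not overlap. Maf, a factor of regulatory and type 17 programmes, had 0.23, 0.32, 0.35, 0.34 and 2.55 CPM with IL12, against 16.09, 21.14, 45.41, 21.6 and 29.37 CPM with TGFB1. Its log2 fold change was -5.1, and -6.36 without library 74. Cd101, an inhibitory surface protein of resident memory T cells, had a log2 fold change of -2.44 ± 0.23. Ikzf2, which encodes Helios, had -1.59 ± 0.27.

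In the TGFB and SMAD pathway, 12 of 27 tested genes were lower (44.4%) and 3 higher (11.1%) with IL12, against 15.8% and 14.9% of all genes. The median log2 fold change was -0.3. The ligand gene Tgfb1 was not called, at 237.4 ± 16.31 CPM with IL12 and 244.9 ± 27.23 CPM with TGFB1 (adjusted p = 0.69). The receptor gene Tgfbr1 averaged 18.17 ± 3.383 CPM with IL12 and 43.73 ± 7.592 CPM with TGFB1, and the activin receptor gene Acvr2a had a log2 fold change of -2.12. Pmepa1, a feedback inhibitor of the pathway, had 7.29, 6.69, 7.94, 4.53 and 12.68 CPM with IL12, against 40.03, 53.29, 65.57, 54.95 and 59.57 CPM with TGFB1, with no overlap. Skil, a repressor of SMAD targets, averaged 51.3 ± 6.539 CPM with IL12 and 98.91 ± 13 CPM with TGFB1. Smad7, the inhibitory SMAD, had a log2 fold change of -0.86 ± 0.24 (adjusted p = 0.00761), and Smad1 of -0.89.

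The aryl hydrocarbon receptor, a sensor of small ring-shaped molecules, was also on the TGFB1 side. Of 12 tested genes of this pathway 6 were lower (50%) and 0 higher with IL12, against 15.8% and 14.9% of all genes. At an unadjusted p below 0.05 the count of members higher with IL12 was 1, and DESeq2 called 0 of them higher. Ahr itself had 1.85, 2.42, 1.9, 2.82 and 3.71 CPM with IL12, against 7.85, 15.53, 31.49, 11.18 and 36.09 CPM with TGFB1, with no overlap. Its target Cyp1a1 averaged 0.1025 ± 0.09132 CPM with IL12 and 6.511 ± 2.967 CPM with TGFB1. The targets Tiparp, Ahrr and Cyp1b1 had log2 fold changes of -1.28, -2.19 and -2.26.

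Among the 12 largest falls that reached 10 CPM with TGFB1 were Tshb, Nat8l, Igha, Il17f, Tead1, Foxp3, Pdpn, Itgae, Maf, Nt5e, Tbc1d4 and Tspan2. Tshb, the gene of a pituitary hormone subunit, was read 4 times over the IL12 libraries and 1484 times over the TGFB1 libraries. Tshb (GRCm38 chr3:102775465-102782718, minus strand) lies wholly inside Tspan2 (chr3:102734529-102801513, plus strand), a tetraspanin gene that had 12.95 ± 5.124 CPM with IL12 and 237.8 ± 23.51 CPM with TGFB1. The strand setting of the counting is not given in the sources used here, so reads of Tshb and Tspan2 cannot be told apart. Nat8l, which makes N-acetylaspartate, averaged 0.1336 ± 0.07119 CPM with IL12 and 17.98 ± 13.3 CPM with TGFB1. Tead1, a DNA-binding partner of YAP, averaged 0.3716 ± 0.204 CPM with IL12 and 22.81 ± 10.84 CPM with TGFB1, and the membrane mucin gene Pdpn had a log2 fold change of -5.2, or -6.03 without library 74.

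Igha, the constant region of immunoglobulin A, had 0.46, 0.19, 0.35, 0.51 and 0.08 CPM with IL12, against 17.29, 10.36, 55.7, 31.36 and 24.12 CPM with TGFB1. The groups did not overlap. In B cells TGFB1 is known to start transcription at this region without an antibody being made. B cell markers other than Cd79b were near 0 in the same libraries. Over the 5 IL12 and the 5 TGFB1 libraries Ms4a1 had 4 and 0 counts and Pax5 0 and 0. The sum of the 8 B cell markers was 6.59 to 7.98 CPM with IL12 and 8.63 to 13.8 CPM with TGFB1. Their share of counts gave a two-sided exact permutation p of 0.00794, and 0.0625 paired by number. Cd79b held 412 counts with IL12 and 531 with TGFB1. It was the 1 marker of the 8 that passed the filter, and it was called lower with IL12 (log2 fold change -0.69), with no overlap. The part of B cells in the Igha counts was not tested. Of 9 tested MHC class II genes, whose proteins mark B cells and myeloid cells, 5 were lower (55.6%) and 1 higher (11.1%) with IL12. Over all genes the shares were 15.8% and 14.9%.

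Of 31 tested members of a list of interferon-gamma response genes, 1 was higher (3.23%) and 16 were lower (51.6%) with IL12 by edgeR. Over all genes the shares were 14.9% and 15.8%. Ifng was 44.0-fold higher in the same libraries. For the list, DESeq2 called 3 higher and 16 lower, and edgeR called 2 higher and 16 lower without IL12 library 74 or with library totals alone. The median over its members was -0.44 on the log2 scale. Interferon-gamma signals through its receptor to switch on IRF1 and then the defence GTPases and antigen presentation genes.

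Irf1 had 65.7, 56.8, 62.19, 65.26 and 62.02 CPM with IL12, against 152.7, 114.1, 136.5, 165.7 and 103.2 CPM with TGFB1. Irgm1, an immunity-related GTPase, had 51.24, 46.55, 54.34, 53.81 and 42.83 CPM with IL12, against 137.4, 136.0, 139.0, 127.4 and 123.7 CPM with TGFB1. Neither gene's groups overlapped. IL12 library 74, with the most Ifng, had the least Irgm1, but its Irf1 level lay inside the range of the other IL12 libraries. The GTPase genes Iigp1, Tgtp2 and Ifi47 had log2 fold changes of -3.2, -2.04 and -1.38. Cxcl10, a chemokine induced by interferon-gamma, was the member higher with IL12, at 3.286 ± 2.417 CPM with IL12 and 0.708 ± 0.2472 CPM with TGFB1. Without IL12 library 74 its mean with IL12 was 2.336 CPM. Its log2 fold change was 2.22, and 1.71 without that library (adjusted p = 0.0333). The 14 members not called included 7 guanylate-binding protein genes, Gbp3, Gbp4, Gbp5, Gbp7, Gbp8, Gbp9 and Gbp11, with log2 fold changes of -0.26 to 1.1. They were picked after their values were seen, and their reads may be shared between copies.

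Of 38 tested genes best known from the type I interferon response 8 were lower and 4 higher with IL12 (median log2 fold change -0.1).

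Antigen presentation by MHC class I stood on the TGFB1 side, like the interferon-gamma response list, at a smaller size. Of 23 tested genes 14 were lower (60.9%, against 15.8% of all genes) and 0 higher with IL12 by edgeR. At an unadjusted p below 0.05 the count of higher genes was 0, and DESeq2 called 0 higher. The median log2 fold change was -0.29. H2-K1, a class I heavy chain, had 1520.4, 1446.8, 1531.8, 1560.6 and 1538.6 CPM with IL12, against 2436.9, 2078.4, 2323.2, 2695.6 and 2158.3 CPM with TGFB1. B2m, the light chain, averaged 1290 ± 163.4 CPM with IL12 and 2061 ± 193.7 CPM with TGFB1, and the peptide transporter gene Tap1 339.5 ± 13.47 CPM with IL12 and 581.2 ± 90.02 CPM with TGFB1. None of the 3 overlapped between the groups. H2-D1 and H2-Q4 both had a log2 fold change of -0.62, and reads of the class I heavy chain genes may be shared between copies. Tested against a minimum of 1.5-fold, these 5 genes were no longer called.

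**Figure D3:**
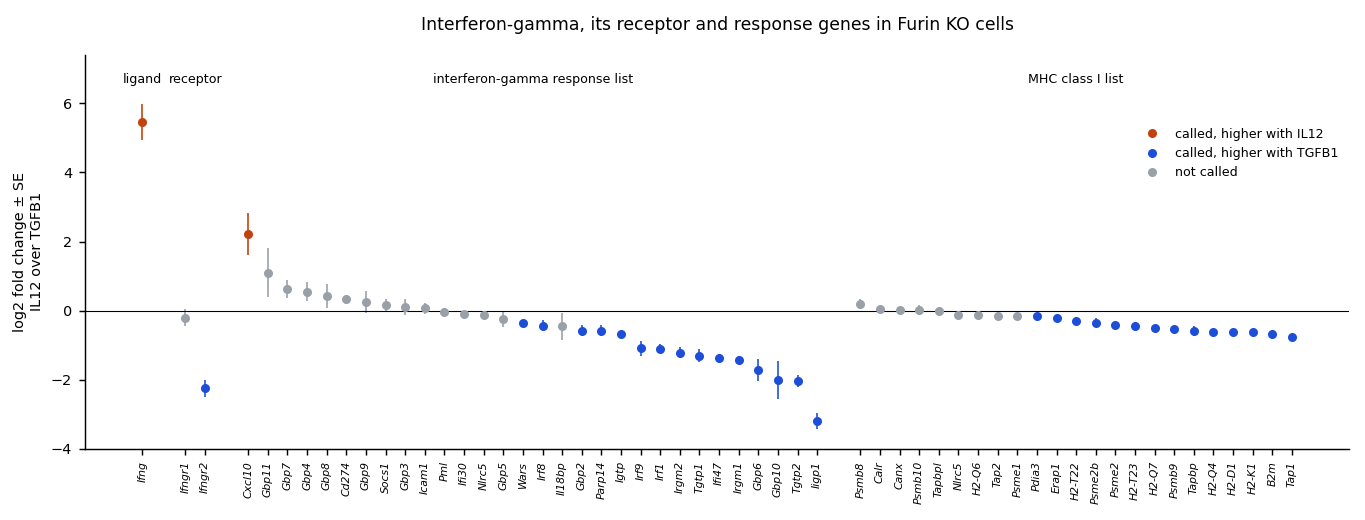
Log2 fold change of IL12 over TGFB1 with its SE in Furin KO cells (vertical) for Ifng, its receptor genes, 30 of the 31 tested members of the interferon-gamma response list and the MHC class I list. Ifng lies at 5.46 and Iigp1, the lowest response gene, at -3.2; blue points were called higher with TGFB1 and grey points were not called.

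The promoter windows of Irf1, Irgm1 and B2m have the same length and source as those of Ifng and Gzmb. They are shown as examples of the interferon and presentation genes called lower with IL12. Other members of these lists fell further, among them Iigp1 (-3.2) and Tap1 (-0.78). Capitals mark TTCNNNGAA, TGANTCA, the interferon element (GAAA, 2 bases of any kind, GAAA; the core of the interferon-stimulated response element) and CAGACA (a SMAD-binding motif), searched on both strands. Irf1 lies at chr11:53769764-53770063 on the plus strand, Irgm1 at chr11:48871371-48871670 on the minus strand and B2m at chr2:122147437-122147736 on the plus strand.
Irf1: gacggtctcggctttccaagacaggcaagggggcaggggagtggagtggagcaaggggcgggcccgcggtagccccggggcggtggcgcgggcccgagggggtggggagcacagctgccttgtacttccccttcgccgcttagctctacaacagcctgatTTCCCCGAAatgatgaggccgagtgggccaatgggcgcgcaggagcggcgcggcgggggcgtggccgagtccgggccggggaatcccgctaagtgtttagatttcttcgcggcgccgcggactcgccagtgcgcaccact
Irgm1: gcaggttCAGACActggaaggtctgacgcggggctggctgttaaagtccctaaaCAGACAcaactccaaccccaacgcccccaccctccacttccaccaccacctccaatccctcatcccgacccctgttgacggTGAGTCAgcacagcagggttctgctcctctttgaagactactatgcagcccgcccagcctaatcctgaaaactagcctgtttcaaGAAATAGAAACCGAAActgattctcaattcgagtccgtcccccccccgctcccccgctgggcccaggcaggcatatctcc
B2m: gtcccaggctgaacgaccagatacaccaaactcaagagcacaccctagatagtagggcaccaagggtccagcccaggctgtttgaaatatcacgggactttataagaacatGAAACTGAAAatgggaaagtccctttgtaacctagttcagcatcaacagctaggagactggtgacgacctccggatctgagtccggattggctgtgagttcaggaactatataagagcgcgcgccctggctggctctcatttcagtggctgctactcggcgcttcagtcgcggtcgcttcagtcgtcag
Irf1 holds TTCCCCGAA at bases 161 to 169 and B2m GAAACTGAAA at bases 112 to 121. Irgm1 holds GAAATAGAAA and GAAACCGAAA, which overlap, at bases 221 to 236.

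Over 8805 tested genes with such a window, 6.87% held TTCNNNGAA, 3.23% the interferon element, 4.52% TGANTCA and 15.2% CAGACA. Of 20 genes of the interferon-gamma response list with a window, 9 held TTCNNNGAA (45%) and 11 the interferon element (55%). In the same windows 3 held TGANTCA (15%) and 7 held CAGACA (35%). Of 20 genes of the MHC class I list with a window, 1 held TTCNNNGAA (5%) and 5 the interferon element (25%). In those windows 0 held TGANTCA and 3 held CAGACA (15%). Among 356 genes called at least 2-fold higher with IL12 the shares were 6.74% for TTCNNNGAA, 6.74% for the interferon element, 9.27% for TGANTCA and 17.1% for CAGACA. Among 239 genes called at least 2-fold lower with IL12 they were 9.62%, 5.44%, 6.69% and 16.7% in the same order. TCACACCT, the element of T-box factors, was in 3.09% of the windows of genes at least 2-fold higher with IL12 and in 0.837% of those at least 2-fold lower, against 0.863% of all. Over all called genes, with no limit on the fold, the shares were 1.48% for those higher and 0.853% for those lower with IL12. A match is a run of letters and does not show that a factor is bound, and no match says only that the letters are not in this window.

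The transcription factors of CD8+ T cell fate moved in both directions, with 16 of 39 tested genes higher (41%) and 9 lower (23.1%) with IL12. Over all genes the shares were 14.9% and 15.8%. Eomes, a T-box factor of cytotoxic and memory cells, had 21.51, 18.79, 20.79, 34.59 and 27.02 CPM with IL12, against 0.93, 1.51, 0.52, 0.95 and 1.47 CPM with TGFB1. Prdm1 (Blimp-1), a factor of terminal effector cells, averaged 13.13 ± 5.497 CPM with IL12 and 1.815 ± 0.6392 CPM with TGFB1. For both genes the groups did not overlap. Runx2 rose by 2.05 and the nuclear receptor gene Nr4a2 by 1.58 on the log2 scale. Tcf7 (TCF-1), the factor of naive and stem-like T cells, had 186.0, 157.4, 178.6, 163.0 and 88.38 CPM with IL12, against 465.7, 266.0, 474.5, 716.0 and 274.7 CPM with TGFB1. Its groups did not overlap, and the TGFB1 libraries 68 and 74 were the lowest of their group. Klf2, which keeps T cells in circulation, averaged 25.24 ± 11.8 CPM with IL12 and 95.27 ± 49.08 CPM with TGFB1, and Tox2 had a log2 fold change of -2.91.

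Genes of naive and memory cells were split, with 8 of 27 higher and 8 lower with IL12 (29.6% each, against 14.9% and 15.8% of all genes). Ccr7, a lymph node homing receptor, was on the lower side, with a log2 fold change of -0.83 ± 0.18 (adjusted p = 0.000648) and overlapping groups. The chromatin organizer Satb1 and the inhibitor of E proteins Id3 rose by 1.4 and 2.05 on the log2 scale. Il6ra, the IL6 receptor, averaged 4.112 ± 1.227 CPM with IL12 and 50.02 ± 6.73 CPM with TGFB1, and Igfbp4, Actn1 and Cd55 had log2 fold changes of -2.07, -1.24 and -0.99. Bcl6 had a log2 fold change of 0.6 ± 0.42, which was not called (adjusted p = 0.287).

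Of 40 tested genes of costimulation and activation 23 were higher (57.5%) and 5 lower (12.5%) with IL12, against 14.9% and 15.8% of all genes. The median log2 fold change was 0.6. Crtam, a receptor of activated cytotoxic cells, averaged 212.2 ± 51.12 CPM with IL12 and 36.3 ± 11.14 CPM with TGFB1, and Tnfrsf4 (OX40) 177.5 ± 21.42 CPM with IL12 and 75.81 ± 14.73 CPM with TGFB1. Slamf7, Fosl2 and Nfkb1 had log2 fold changes of 1.6, 1.34 and 0.65, and Cd86, Cd2 and Cd48 of -1.75, -0.77 and -0.33. Of 17 tested inhibitory receptor genes 3 were higher (17.6%) and 5 lower (29.4%) with IL12 by edgeR, and 4 higher and 5 lower by DESeq2. Ctla4 averaged 107.1 ± 23.77 CPM with IL12 and 214.9 ± 41.12 CPM with TGFB1, Lag3 265.6 ± 13.18 CPM with IL12 and 423.1 ± 62.68 CPM with TGFB1, and Cd96 had a log2 fold change of -1.29. The adenosine receptor gene Adora2a rose by 1.61, while Pdcd1 (PD-1), at -0.15 ± 0.19, was not called (adjusted p = 0.584).

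Of 10 tested NK-type receptor genes 5 were higher (50%, against 14.9% of all genes) and 0 lower with IL12. At an unadjusted p below 0.05 the count of lower genes was 0, and DESeq2 called 0 lower. Without IL12 library 74, 6 were higher and 1, Ly6a, was lower. Klrk1, the activating receptor NKG2D, had 110.2, 112.7, 109.3, 112.2 and 88.46 CPM with IL12, against 33.38, 25.35, 39.49, 43.48 and 26.7 CPM with TGFB1. Klrc1 (NKG2A) rose by 2.16. Among homing receptors and integrins, 8 of 31 were higher (25.8%) and 11 lower (35.5%) with IL12, against 14.9% and 15.8% of all genes. Cxcr3, a receptor of CXCL10, had a log2 fold change of -1.37 ± 0.43 (adjusted p = 0.0162), and without TGFB1 library 73 an adjusted p of 0.0714. The gut homing receptor gene Ccr9 and the urokinase receptor gene Plaur were not called (adjusted p = 0.172 and 0.73). Klrg1 and Havcr2, markers of effector cells, were below the filter on counts, at 0.05747 and 0.5814 CPM with IL12 and 0 and 0.1623 CPM with TGFB1.

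Of 36 tested genes of glycolysis and hypoxia 19 were higher (52.8%) and 1 lower (2.78%) with IL12, against 14.9% and 15.8% of all genes. The median log2 fold change was 0.3. The glucose transporter gene Slc2a1 had 184.1, 183.3, 185.3, 178.6 and 231.1 CPM with IL12, against 94.02, 111.3, 97.99, 85.83 and 114.0 CPM with TGFB1, with no overlap. Hk2, the first enzyme of the pathway, averaged 223.3 ± 72.36 CPM with IL12 and 72.18 ± 21.47 CPM with TGFB1, and the lactate exporter gene Slc16a3 118.4 ± 14.62 CPM with IL12 and 37.01 ± 15.79 CPM with TGFB1. Slc2a3 and Pkm had log2 fold changes of 0.75 and 0.57. Oxidative phosphorylation gave 1 higher and 4 lower of 42, sterol and fatty acid synthesis 7 higher and 3 lower of 38, and the ATF4 amino acid response 3 higher and 4 lower of 37, each with a median of 0.04 or less on either side of 0. The other lists gave counts nearer to the background of 14.9% higher and 15.8% lower. IL2 and common-gamma-chain genes had 4 higher and 2 lower of 21, and the BCL2 family 5 higher and 2 lower of 21. Endoplasmic reticulum and secretory genes had 5 higher and 4 lower of 31, and cyclins and cell cycle inhibitors 5 higher and 3 lower of 19. FURIN with other convertases and their substrates had 5 higher (20%) and 6 lower (24%) of 25.

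Ribosomal proteins moved together toward TGFB1. Of 80 tested genes of cytosolic ribosomal proteins 74 were lower with IL12 (92.5%, against 15.8% of all genes) and 0 higher by edgeR. The median log2 fold change was -0.38. At an unadjusted p below 0.05 the count of higher genes was 1, DESeq2 called 1 higher, and scaling by library totals alone gave 1 higher. Their share of all counts was 8.35 ± 0.422% with IL12 and 10.7 ± 0.538% with TGFB1 (SD, n = 5 each), with 9.87% on average without a cytokine. The IL12 libraries lay at 7.64 to 8.74% and the TGFB1 libraries at 10.1 to 11.3% (two-sided exact permutation test, p = 0.00794, the smallest that 5 against 5 libraries can give). Paired by library number, as the libraries deviate together, the exact permutation p was 0.0625, the smallest that 5 pairs can give. Genes of the mitochondrial genome took 1.51 ± 0.507% of counts with IL12 and 0.814 ± 0.133% with TGFB1 (exact permutation p = 0.0159), at 0.895 to 2.1% against 0.68 to 0.996%, so these groups overlapped, and paired by number the exact permutation p was also 0.0625. Of 40 G2 and M phase genes 13 were lower with IL12 (32.5%) and 0 higher by edgeR (0 higher at an unadjusted p below 0.05 and 0 by DESeq2). Of 40 S phase genes 10 were lower (25%) and 1 higher (2.5%), against 15.8% and 14.9% of all genes. The S phase count of lower genes was 4 without IL12 library 74 and 15 with upper-quartile factors.

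**Figure D4:**
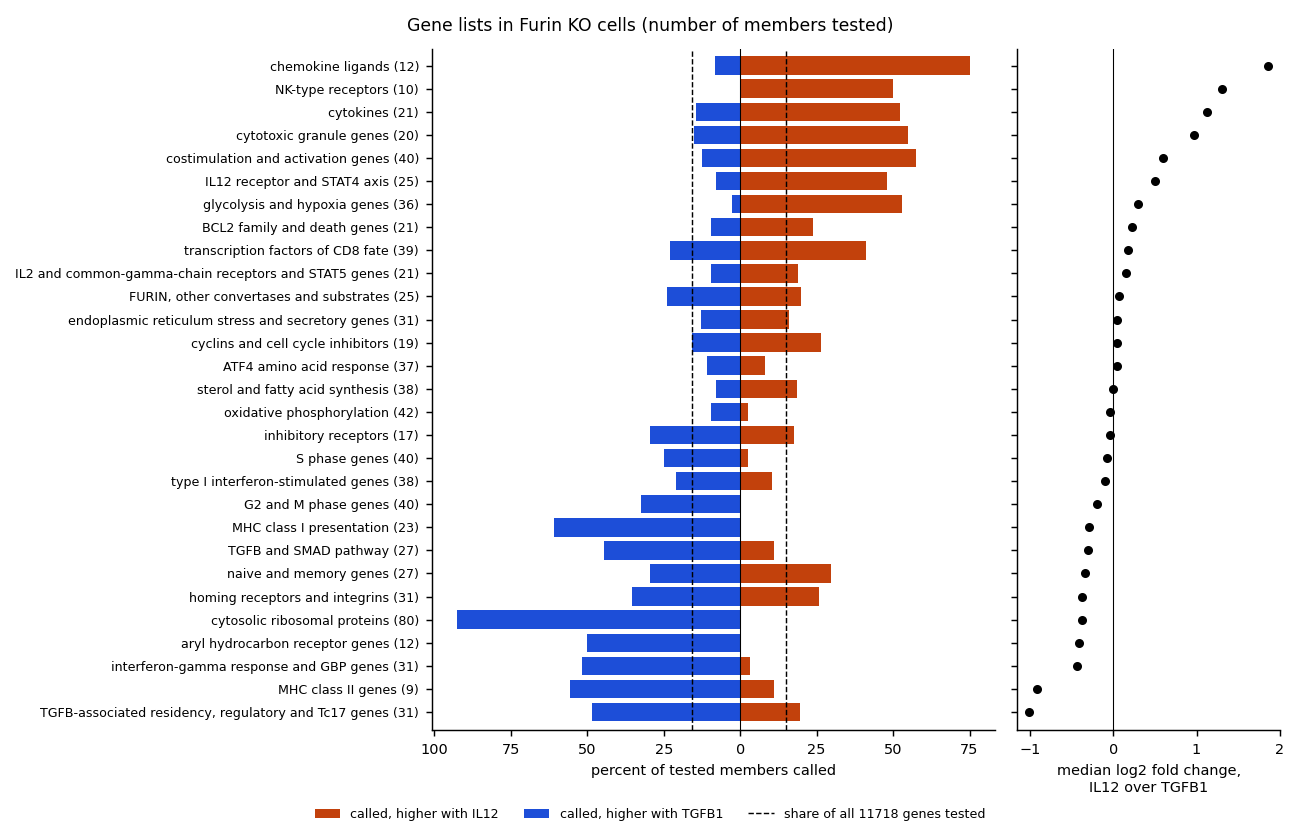
Share of the tested members of 29 gene lists called higher with IL12 (orange, right) or higher with TGFB1 (blue, left) in Furin KO cells, with the share of all 11718 genes as dashed lines at 14.9% and 15.8%, and the median log2 fold change of each list (right panel). Chemokine ligands stand at the top with a median of 1.86 and the residency list at the bottom with -1.01.

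All 10 CD8 T cell markers were read in both groups, summing to 2940 to 3490 CPM with IL12 and 3500 to 4350 CPM with TGFB1. Cd8a averaged 500.05 CPM with IL12 and 711.384 CPM with TGFB1 (log2 fold change -0.51, adjusted p = 0.000512), and Cd8b1 had a log2 fold change of -0.81. Markers of gamma-delta T cells, a lineage that the sort for CD8 would mostly leave behind, were higher with IL12 in 4 of 4 tested. The 5 markers of that list summed to 7.91 to 19.4 CPM with IL12, 4.74 to 6.69 CPM with TGFB1 and 6.49 to 17.5 CPM without a cytokine. Trdc had 342 counts with IL12 and 138 with TGFB1. Their part in the cytotoxic and type 17 results was not tested. Ncr1, an NK cell marker, had 8 counts over the IL12 and 0 over the TGFB1 libraries. Cd4 had 21 and 36 counts, and the 11 myeloid markers summed to 3.24 to 6.38 CPM with IL12 and 3.5 to 8.63 CPM with TGFB1.

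The level without a cytokine places each difference. For the 497 genes called at least 2-fold higher with IL12, the mean of the KO libraries without a cytokine lay between both arms for 67.2%, above both for 14.9% and below both for 17.9%. For the 348 genes called at least 2-fold lower with IL12 it lay between for 61.2%, above both for 1.44% and below both for 37.4%. On the log2(CPM + 0.5) scale it was nearer to the IL12 mean for 49.3% of the higher genes and for 83.6% of the lower genes. Gzmb and Ifng show both cases among the higher genes, with 484.9 CPM without a cytokine for Gzmb, and 14.99 CPM for Ifng, next to 14.48 CPM with TGFB1. Nt5e and Itgae, among the lower genes, had 7.756 and 1.425 CPM without a cytokine, next to 10.69 and 1.479 CPM with IL12.

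The same comparison in WT cells shared no library with that in KO cells. In WT cells 6143 genes were called between IL12 and TGFB1, 52.4% of those tested, with 26.6% higher and 25.8% lower with IL12. Across the 11718 genes the log2 fold changes of KO and WT had a Pearson r of 0.79 and a Spearman rho of 0.628, given as a description since genes are not replicates. Of the 3587 genes called in KO cells 3200 had the same direction in WT cells, 2402 were called there in that direction and 45 in the other. The difference between the genotypes was tested for each gene in the fit of all 30 libraries, and 797 genes were called, 6.8% of those tested, 397 with a higher (3.39%) and 400 with a lower (3.41%) log2 fold change in KO. When the spread was estimated from the 20 libraries with a cytokine alone, edgeR called 0 genes, the smallest adjusted p was 0.0706 and 2803 genes had an unadjusted p below 0.05. DESeq2 called 1504. Leaving out single libraries gave between 111 calls (without WT TGFB1 library 75) and 3040 (without WT TGFB1 library 62). Each difference named here was called in the fit of 30 libraries and not in that of 20.

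**Figure D5:**
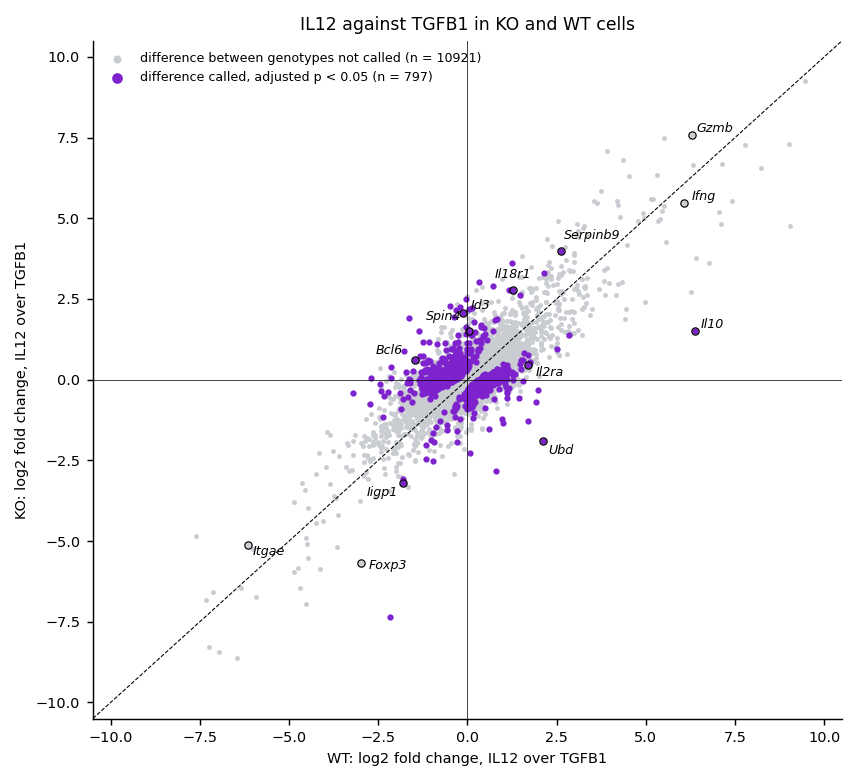
Log2 fold change of IL12 over TGFB1 in Furin KO cells (vertical) against that in WT cells (horizontal) for 11718 genes. Purple points are the 797 genes whose difference between the genotypes was called in the fit of all 30 libraries, circles mark named genes and the dashed line marks equal values; Ubd stands at 2.11 in WT and -1.9 in KO cells.

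Id3 had 67.32, 67.76, 74.09, 44.33 and 70.59 CPM with IL12, against 18.88, 9.82, 16.31, 24.92 and 8.29 CPM with TGFB1, in KO cells. In WT cells it averaged 45.58 ± 11.94 CPM with IL12 and 49.33 ± 21.05 CPM with TGFB1. KO and WT thus differed in log2 fold change by 2.17 ± 0.36 (2.05 against -0.12, adjusted p = 0.00852). Ubd, which encodes the ubiquitin-like protein FAT10, had 1.59 ± 0.9603 CPM with IL12 and 5.885 ± 0.796 CPM with TGFB1 in KO cells, and 4.274 ± 4.337 CPM with IL12 and 0.9962 ± 0.5179 CPM with TGFB1 in WT cells. Its direction was opposite in the 2 genotypes, called in both, and the difference was -4.01 ± 0.69 (adjusted p = 0.00852). The other 6 genes with the smallest p for the difference were Cyb561a3, Kmt5b, Rnf145, Tmed3, Spin4 and Dusp2. Within KO cells Cyb561a3 and Kmt5b differed little, by 0.32 and 0.21 on the log2 scale, and most of the fits that left out a library did not call them. Spin4, of the spindlin family of chromatin readers, averaged 12.5 ± 1.578 CPM with IL12 and 4.384 ± 0.5239 CPM with TGFB1 in KO cells, and 6.895 ± 1.951 CPM with IL12 and 6.614 ± 1.75 CPM with TGFB1 in WT cells. Dusp2, a phosphatase of MAP kinases, had a log2 fold change of 0.53 in KO and -0.62 in WT cells.

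Several effector and receptor genes differed in size between the genotypes in the fit of 30 libraries, but not in that of 20. Of 20 fits that each left out a library, the difference was called in 5 for Il18r1 and 7 for Il10. It was called in 10 for Serpinb9, 10 for Il2ra, 14 for Bcl6 and 20 for Iigp1. Il18r1 had a log2 fold change of 2.79 in KO and 1.27 in WT cells (adjusted p of the difference 0.0467), and Serpinb9 4.0 in KO and 2.61 in WT cells (adjusted p = 0.0386). Il2ra, the IL2 receptor chain CD25, was not called in KO cells, at 1350 ± 242.5 CPM with IL12 and 987.7 ± 298.6 CPM with TGFB1. In WT cells it averaged 1298 ± 152.0 CPM with IL12 and 400.7 ± 266.4 CPM with TGFB1, and the difference between genotypes was -1.25 ± 0.35 (adjusted p = 0.0362). Il10 differed by -4.89 ± 1.51 (adjusted p = 0.048), with 6.056 ± 5.363 CPM with IL12 and 0.06484 ± 0.103 CPM with TGFB1 in WT cells. That TGFB1 mean lies near 0.0605 CPM, which 3 counts over the WT TGFB1 group equal. Bcl6 had 2.318 ± 0.7345 CPM with IL12 and 1.525 ± 0.3373 CPM with TGFB1 in KO cells, and 2.926 ± 1.279 CPM with IL12 and 8.175 ± 4.874 CPM with TGFB1 in WT cells, a difference of 2.08 ± 0.55 (adjusted p = 0.0314). Among the interferon genes Iigp1 had a log2 fold change of -3.2 in KO and -1.82 in WT cells (adjusted p = 0.0202). For Ifng the difference was -0.62 ± 0.67 (adjusted p = 0.555), for Gzmb the adjusted p was 0.183 and for Itgae 0.356, with folds that pointed the same way in both genotypes.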

How the data were processed

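The authors deposited whole-number read counts per gene for 30 poly(A) RNA libraries, made with a directional kit per the labels' protocols. FastQC, Trim Galore, STAR, DESeq2 1.24.0 and GRCm38 are named in the submitters' processing notes. Which tool did the counting, whether it used strand and with which annotation is not given in the sources used here. Symbols and coordinates were taken from GENCODE vM21 by Ensembl ID, and promoter windows from RefSeq on GRCm38.p6.

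From the deposited counts, counts scaled to 1000000 per library (CPM) were computed with TMM factors. Genes were kept with edgeR's filter at a minimum count of 10, which left 11718 of 55573. edgeR 4.0.16 (R 4.3.3) fitted 6 group means to all 30 libraries with its robust quasi-likelihood test. A gene was called at a Benjamini-Hochberg adjusted p below 0.05 over all genes tested, and every adjusted p is from this test unless another tool is named. Fold changes are log2 of IL12 over TGFB1 with their SE. Shares of counts were compared with two-sided exact permutation tests, whose smallest p is 0.00794, or 0.0625 with libraries paired by number. Alternatives were DESeq2 1.42.0, limma-voom 3.58.1, other scaling factors and count filters, a minimum fold of 1.5, females alone, fewer libraries, a replicate block and leaving out each library. The fits were tested on simulated data.

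Libraries with the same number deviated together from their group means (r = 0.368, 0.132, 0.18, 0.223 and 0.282 for 63, 68, 70, 73 and 74), each number correlating highest with itself, so the numbers pair the libraries. The labels do not say that libraries of a group come from separate animals, so p-values measure the spread between these libraries. Within the KO IL12 group and within the KO TGFB1 group, no library was a copy of another. Other pairs of libraries were not compared in this way. Of the columns, 0 were left out. Intervals and floors cover counting error only.

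Named genes were 40 key genes, the 12 largest rises and falls among called genes that reached 10 CPM in the higher group, the 8 with the smallest p, the 8 with the smallest p for the difference between genotypes and up to 5 per list and direction. The members, gene lists and rules were chosen with earlier results of these data known. Other genes named are marked as picked after their values were seen. Some genes that these rules pick are not reported here by name, and counts over lists and over all genes include them.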

Additional observations from a re-analysis of the deposited data

Results flagged for a closer look

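Among 258 sets of 5 libraries of the named genes, 30 held a library whose gap to its nearest neighbour passed Dixon's critical share of 0.71 of the range, and chance passes about 5% of sets. Of the 30, 20 were IL12 library 74, which was the highest in 18.

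IL12 library 74 was the highest of its group for Furin (463.5 CPM, others 120.0 to 195.7), Ifng (1425.5, others 338.1 to 566.0), Tbx21 (177.3, others 101.6 to 107.4) and Prf1 (389.7, others 194.8 to 243.2). It was also the highest for Nt5e at 18.9 CPM, Il18rap at 86.1, Inhba at 16.1, Ccl9 at 197.3, Ccl5 at 23.9, Il1a at 7.82 and Il1rl1 at 100.8 CPM. The same held for Atp6v0d2 at 91.0 CPM, Lilr4b at 20.9, Maf at 2.55, Adora2a at 87.1, Slamf7 at 51.8, Slc2a1 at 231.1 and Il2ra at 1774.0 CPM. It was the lowest of its group for Cd48 (110.2 CPM, others 125.4 to 130.9) and Klrk1 (88.5, others 109.3 to 112.7). The cause was not tested.

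IL12 library 73 was low for H2-Q4 (68.2 CPM, others 74.1 to 75.7) and Id3 (44.3, others 67.3 to 74.1), and high for Ikzf2 (14.5, others 8.44 to 9.49) and Slc2a3 (105.0, others 76.9 to 80.5). TGFB1 library 70 was high for Rgmb at 12.7 CPM, Il18rap at 9.35, Atp6v0d2 at 2.08 and Cyp1a1 at 11.6 CPM. TGFB1 library 68 was high for Prf1 at 26.3 CPM and TGFB1 library 73 for Ctla4 at 285.9 CPM.

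The log2 fold change of IL12 over TGFB1 differed between KO and WT cells, by edgeR over all 30 libraries, for 21 of the named genes. The difference, KO minus WT, was called in each of 20 fits that left out a library for Id3 (2.17), Ubd (-4.01), Cyb561a3 (1.1), Kmt5b (0.64), Rnf145 (0.83), Tmed3 (-0.51), Spin4 (1.46), Dusp2 (1.15), Adora2a (1.15) and Iigp1 (-1.38). It was called in 10 to 18 of these fits for Exoc3 (-0.35), Bpgm (-0.58), Serpinb9 (1.39), Cyp1b1 (-2.34), Bcl6 (2.08), Cd2 (-0.86) and Il2ra (-1.25). For Il18r1 (1.51), Il10 (-4.89), Tiparp (-0.51) and Satb1 (0.93) it was called in 5 to 8. With the spread taken from the 20 libraries with a cytokine alone, none of the 21 was called, the smallest adjusted p being 0.0706.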

How the results depend on the processing

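For IL12 against TGFB1 in KO cells, 3587 genes were called, and each alternative but the minimum-fold test stayed within 1.5 times of that. The test against a minimum of 1.5-fold called 648 genes (384 higher and 264 lower with IL12), so 59.3% were higher, against 48.5%. Leaving out 1 library gave 3025 to 3723 calls. Over 130 named genes, 2756 of 2842 values under the alternatives kept their direction and their side of the threshold, 2 values not called in either fit turned sign, 82 lost the call and 2 gained it, and 0 called values turned direction. The 2 that turned sign were Plaur, at -0.25 with all libraries and 0.57 without TGFB1 library 73, and Tgfb1, at -0.05 with all libraries and 0.01 without TGFB1 library 74. The minimum-fold test accounts for 29 of the 82. Leaving out a library ended a call for 6 genes, Serpinb6a, Il1a, Cd160, Cyb561a3, Kmt5b and Cxcr3.

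For the difference of KO from WT, 797 genes were called, and DESeq2 gave 1504, females alone 2438, no filter on low counts 279 and the 20 libraries with a cytokine 0. Leaving out a library gave 111 to 3040 calls. The count was over 1.5 times higher without KO IL12 library 74, KO TGFB1 73, WT IL12 62 or WT TGFB1 62 or 72. It was over 1.5 times lower without KO IL12 63, 68 or 70, KO TGFB1 68 or 74, WT IL12 72 or 75, or WT TGFB1 67, 71 or 75. Library totals alone put 65.5% of its calls higher in KO, against 49.8%. The cause was not tested.

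With the replicate block, 4178 genes were called between IL12 and TGFB1 in KO cells and 2078 for the difference between genotypes. Paired by number, the ribosomal share (-2.35 percentage points) and the mitochondrial share (0.701) each had an exact permutation p of 0.0625, the smallest that 5 pairs can give. Leaving out a library gave -2.51 to -2.17 points for the ribosomal share and 0.554 to 0.856 for the mitochondrial share. Depth limits genes under the filter, where 3 counts over a group equal 0.0509 CPM with IL12 and 0.063 CPM with TGFB1.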
